A study of Sus scrofa with 21 samples.

Results

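The genes described here are 10 regulators of the G1 phase of the cell cycle: the D cyclins CCND1, CCND2 and CCND3, the kinases CDK4 and CDK6, the pocket proteins RB1, RBL1 and RBL2, the transcription factor E2F3, and MYC. Each was taken as the row of the deposited count table with that gene name. They are 10 of 25880 rows, each name had 1 row, and all 10 were among the 15359 genes that passed the filter on low counts and were tested. The samples were hearts of pigs with a myocardial infarction (MI) made on postnatal day 1 by tying off the left descending coronary artery for good, and hearts labelled naive. MI hearts were collected on day 7 (3 libraries), day 14 (3) and day 28 (2), and naive hearts on day 1 (2), day 3 (2), day 7 (3), day 14 (3) and day 28 (3), 1 pig to a library, 21 libraries in all. The treatment protocol describes the age-matched controls as operated on without the ligation, although their label reads naive. All pigs were hand-fed, and tissue was taken from the border of the ischaemic zone or, in controls, from the matching place. The labels name no sex, litter or library batch, and whole tissue mixes cell types.

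The libraries held 37002909 to 95559841 counts each, of which 15.8% to 34.6% were from mitochondrial genes. Levels below are CPM (counts scaled to a fixed library total), adjusted by edgeR's TMM factors. An earlier analysis of these data set 4 libraries apart from the other 17. In naive hearts they are replicate 2 of day 28 and replicate 3 of day 14, and in MI hearts replicate 3 of day 7 and replicate 2 of day 28. These 4 had 5.06 to 12.1 CPM of the row ENSSSCG00000035520, against 2819 to 8808 CPM in the other 17. Replicate numbers follow the order of deposit and pair nothing across groups. Cardiomyocyte markers were present at high levels in every library, with a summed level of 40994 to 106935 CPM over 10 genes, although TNNI3 did not pass the filter.

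In G1, D cyclins bind CDK4 or CDK6, and the active kinases phosphorylate the pocket proteins. Pocket proteins that are not phosphorylated hold E2F transcription factors and keep genes of DNA replication silent, RB1 mainly with the activating E2Fs such as E2F3, and RBL1 (p107) and RBL2 (p130) mainly with the repressive ones. MYC is an early growth-response transcription factor that pairs with MAX and binds E-boxes. In the mammalian heart, cardiomyocytes leave the cell cycle soon after birth, and this pathway is one of the best studied gates of that exit.

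The promoters of 9 members were read from the Sscrofa11.1 genome with RefSeq gene starts, as the 250 bases before the annotated start, and searched on both strands for 4 E2F site spellings (TTTCCCGC, TTTGGCGC, TTTCGCGC and TTTGCCGC) and for the MYC E-box CACGTG. The 3 promoters with a match are shown, 5′ to 3′ on the gene's strand, because they hold a spelling that was searched for. The capitals mark the match.
RBL1: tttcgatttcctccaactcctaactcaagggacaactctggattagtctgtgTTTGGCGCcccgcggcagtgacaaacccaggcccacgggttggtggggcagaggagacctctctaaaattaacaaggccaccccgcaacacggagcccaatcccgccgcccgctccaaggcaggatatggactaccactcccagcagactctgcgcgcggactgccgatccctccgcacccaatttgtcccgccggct
RB1: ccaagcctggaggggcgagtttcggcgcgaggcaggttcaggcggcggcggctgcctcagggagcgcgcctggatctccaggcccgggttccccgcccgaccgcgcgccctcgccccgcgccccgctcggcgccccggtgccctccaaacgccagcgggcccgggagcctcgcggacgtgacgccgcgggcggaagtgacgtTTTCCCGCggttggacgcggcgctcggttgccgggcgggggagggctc
CDK4: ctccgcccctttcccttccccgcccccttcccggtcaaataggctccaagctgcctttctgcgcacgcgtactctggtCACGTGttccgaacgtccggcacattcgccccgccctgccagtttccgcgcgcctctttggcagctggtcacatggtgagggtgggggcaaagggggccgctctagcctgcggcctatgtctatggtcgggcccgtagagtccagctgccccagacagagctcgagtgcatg
RBL1 (chr17:40279319-40279568, minus strand) had an E2F match that began 198 bases before the start, and RB1 (chr11:19317643-19317892, minus strand) had one 48 bases before it. CDK4 (chr5:23041960-23042209, minus strand) had an E-box 172 bases before its start. Over 19556 pig promoters of the same length, 2.81% held one of the E2F spellings and 6.39% the E-box. CCND1, CCND2, CCND3, RBL2, E2F3 and MYC had neither in this window. A match is a string of letters and not a measured site.

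The level of the genes varied by different amounts over the 21 libraries. MYC ranged over 8.49-fold from the lowest to the highest library, CDK6 over 5.26-fold, CCND2 over 4.56-fold and CCND1 over 4.49-fold. RB1 varied least, over 1.59-fold, and CDK4 over 1.99-fold. RBL2, E2F3, CCND3 and RBL1 lay between, at 3.63-, 3.27-, 2.96- and 2.87-fold.

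**Figure D1:**
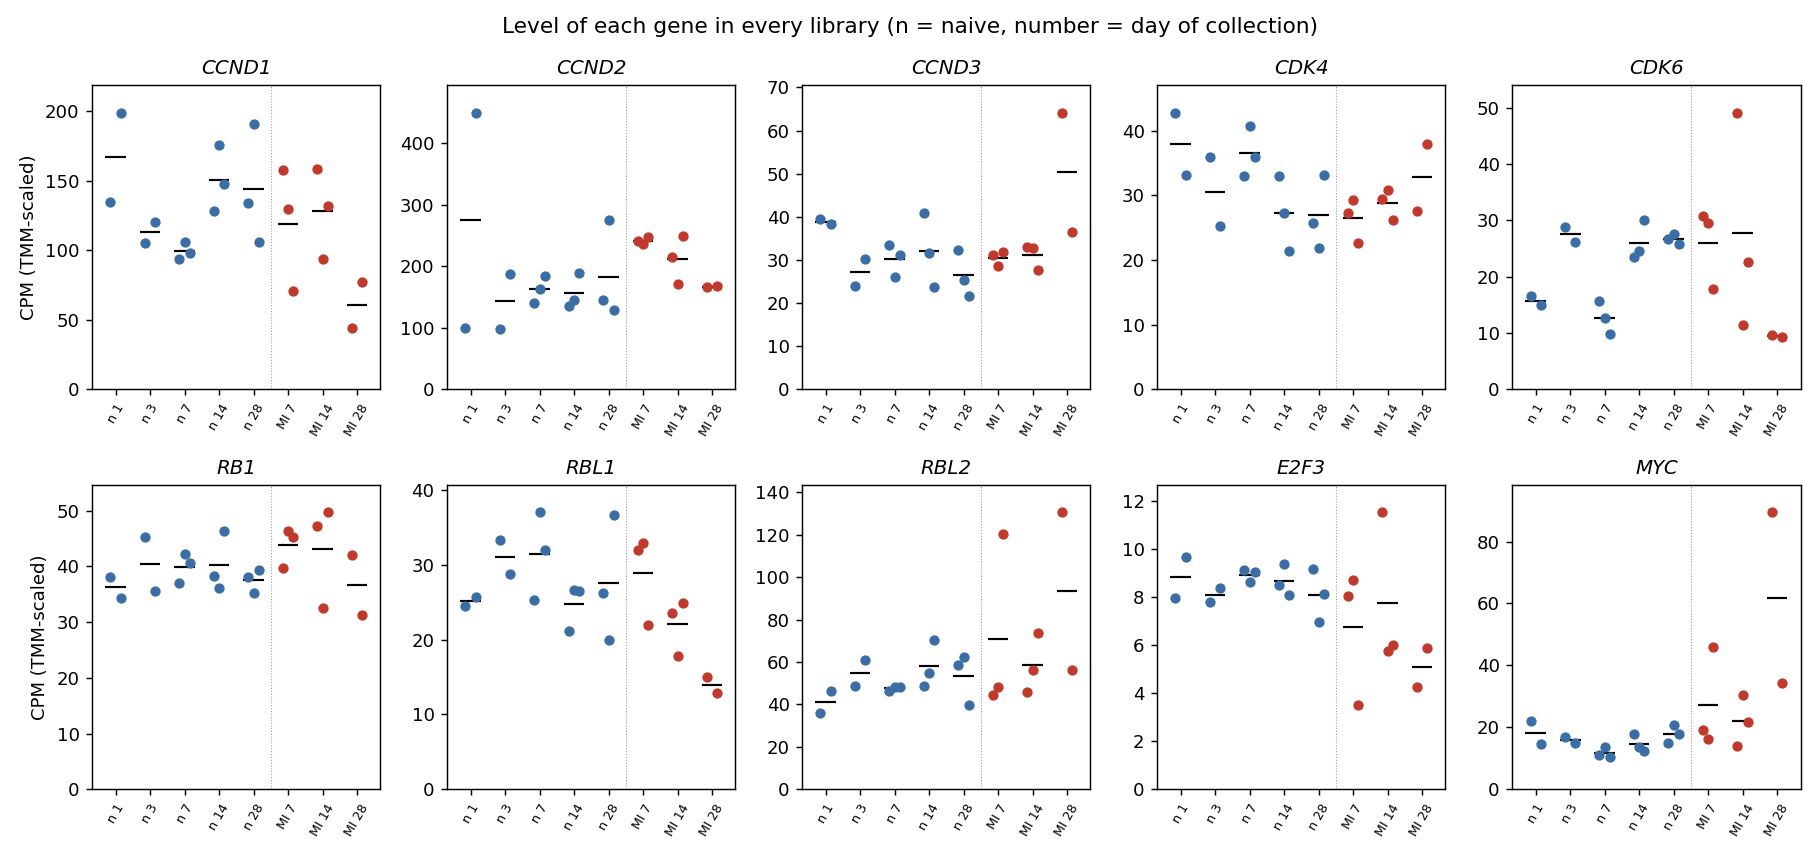
Level of each of the 10 genes (y axis, TMM-scaled CPM, from 0) in every library of the 8 groups, naive in blue and MI in red, with the bar at the group mean. MYC reached 89.4 and 34.3 CPM in the MI day 28 hearts, above all 13 naive libraries, while CDK6 and RBL1 were lower there than in the 19 other libraries. The share of all genes placed this way was not counted.

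MI hearts on day 28 differed from naive hearts of that age in 5 of the 10 genes. MYC and CCND3 were higher, and CCND1, CDK6 and RBL1 were lower. Genes were called at an adjusted p under 0.05 in edgeR's quasi-likelihood test over all 15359 genes, and 1053 genes, 6.86% of those tested, were called in this comparison. Higher calls made up 4.47% and lower calls 2.38% of the tested genes, against 2 and 3 of the 10. The median log2 fold change was -0.08 over the 10 genes and 0.00 over all genes. In bulk tissue, fewer cells of a type and less RNA per cell cannot be told apart. No gene was compared with another by level, since the table gives no transcript lengths.

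CCND1, the D cyclin most directly induced by growth factors, had 44.4 and 77.2 CPM in the MI day 28 hearts and 134, 191 and 106 CPM in naive day 28 hearts. Both MI values lay below all 13 naive libraries of any age, whose range was 94.2 to 199 CPM. The share of all genes placed this way was not counted, here or for the genes that follow. CCND1 fell by 1.24 on the log2 scale (SE 0.34, adjusted p = 0.0421, edgeR). CCND3, the D cyclin most often tied to differentiating cells, had 64.1 and 36.5 CPM in MI and 32.3, 25.4 and 21.7 CPM in naive hearts, without overlap. CCND3 rose by 0.93 (SE 0.24, adjusted p = 0.0350, edgeR). CCND2, the cyclin that extends cardiomyocyte cycling when overexpressed in mice, had 166 and 168 CPM in MI hearts, inside the naive range of 129 to 274 CPM, and was not called.

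CDK6 was the lowest here of all groups, with 9.59 and 9.34 CPM in MI hearts against 26.7, 27.7 and 25.8 CPM in naive day 28 hearts. The replicates lay close together in both groups, and both MI values were below every other library of the series. CDK6 fell by 1.5 (SE 0.41, adjusted p = 0.0420, edgeR). CDK4, the partner kinase, had 27.7 and 38.0 CPM in MI and 21.9 to 33.2 CPM in naive hearts, which overlap, and was not called.

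RBL1, the pocket protein that is itself a known E2F target, had 15 and 12.9 CPM in MI and 26.2, 19.9 and 36.7 CPM in naive day 28 hearts. Both MI values were again below the 19 other libraries. RBL1 fell by 0.99 (SE 0.25, adjusted p = 0.0347, edgeR). RBL2, the pocket protein of resting cells, had 131 and 56.0 CPM in the MI pair and 39.6 to 62.4 CPM in naive hearts, and was not called. RB1 had 42 and 31.2 CPM in MI and 35.2 to 39.4 CPM in naive hearts, and was not called either.

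MYC had 89.4 and 34.3 CPM in MI and 14.8, 20.8 and 17.8 CPM in naive day 28 hearts. MI replicate 1 was far above replicate 2, and both were above all 13 naive libraries. MYC rose by 1.80 (SE 0.43, adjusted p = 0.0279, edgeR). E2F3 had 4.26 and 5.89 CPM in MI and 9.18, 6.95 and 8.11 CPM in naive hearts. Its groups did not overlap, and both MI values lay below all 13 naive libraries, but it was not called. With E2F3 and the 5 called genes, 6 of the 10 did not overlap between the groups, against 37.8% of all genes tested.

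The day 28 calls rested on few libraries. Without MI replicate 1, none of the 10 genes was called, with the lone MI library assumed to vary like the other groups, and MYC was higher by 0.97 (adjusted p = 0.218, edgeR) and CCND3 by 0.49 (adjusted p = 0.279). Without MI replicate 2, MYC was higher by 2.35, and the calls of CDK6 and RBL1 were lost. Leaving out naive replicate 3 ended all 5 calls, leaving out naive replicate 1 left CCND3, and leaving out naive replicate 2 left RBL1. The fold change of CDK6 stayed between -1.52 and -1.45 over these 5 fits, while its adjusted p (edgeR) was 0.0748 to 0.124. With a term for the 4 libraries set apart, CCND3, RBL1 and MYC were called. Leaving out those 4 libraries, like leaving out MI replicate 2, left MI replicate 1 as the only MI day 28 library. It had 89.4 CPM of MYC and 131 CPM of RBL2, against 34.3 and 56.0 CPM in replicate 2. Members called with replicate 1 as the only MI day 28 library are therefore not named. DESeq2 called the same 5 genes as edgeR, while voom and a fit to the 5 libraries alone called none of the 10.

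Markers of other cell types also differed in the MI day 28 hearts. The summed cardiomyocyte markers were 51141 and 40994 CPM in MI replicates 1 and 2, against 65712 to 106935 CPM in the 13 naive libraries, and 2 of 9 tested markers (ACTC1 and MYL2) fell. The 10 macrophage and monocyte markers summed to 324 and 3836 CPM, against 73.2 to 578 CPM, and 6 of 10 rose. The 10 fibroblast markers summed to 1942 and 22390 CPM, against 2869 to 13712 CPM, and 1 of 10 (TCF21) rose. The 8 smooth muscle and pericyte markers summed to 1672 and 723 CPM, against 762 to 1269 CPM, and 4 of 8 (ACTA2, MYH11, TAGLN and LMOD1) rose. Adipocyte markers summed to 668 and 143 CPM, against 109 to 285 CPM, and 3 of 5 tested (ADIPOQ, CIDEA and CIDEC) rose. Epicardial markers summed to 51.7 and 196 CPM, against 34.5 to 77.5 CPM, and 1 of 4 (WT1) rose. Neutrophil markers were low, at 5.19 and 38.4 CPM against 0.584 to 3.47 CPM, and 1 of 4 tested (CSF3R) rose. No tested marker of lymphocytes (7 genes), endothelium (7), erythroid cells (4) or Schwann cells (4) was called. The MI pair differed from each other in most of the sums given. The part of these markers in the changes of CCND1, CCND3, CDK6, RBL1 and MYC was not tested.

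**Figure D2:**
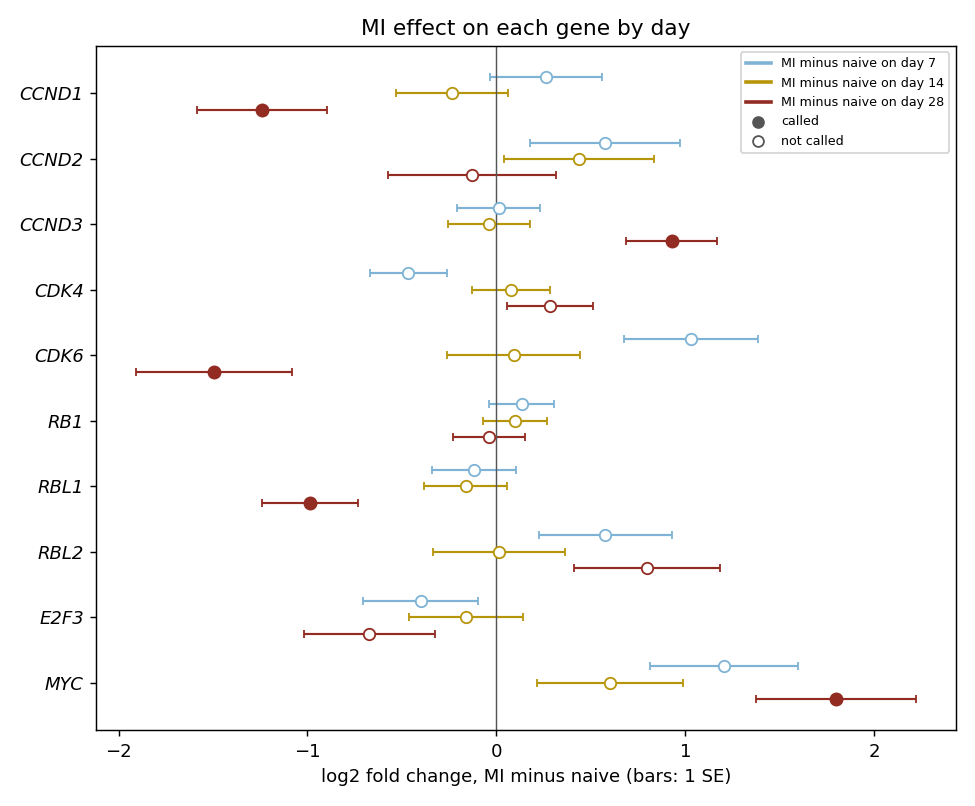
Log2 fold change of MI against naive hearts (x axis, with bars of 1 SE) for each gene (y axis) on day 7, 14 and 28; filled points were called at an adjusted p under 0.05. The 5 filled points all belong to day 28, and the CDK6 points of day 7 (1.03) and day 28 (-1.5) lie on opposite sides of 0.

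On day 7 none of the 10 genes was called between MI and naive hearts, and neither was any other gene (0% of genes), although DESeq2 called 263 genes and voom with sample weights 2040. At an unadjusted p under 0.05 the edgeR test had 3 of the 10 genes, against 12.4% of all genes. CDK6 had 30.8, 29.6 and 17.8 CPM in MI and 15.7, 12.7 and 9.91 CPM in naive day 7 hearts, and the groups did not overlap. The difference was 1.03 (SE 0.35, adjusted p = 0.260, edgeR). MYC had 19.3, 16.1 and 46.0 CPM in MI and 10.5 to 13.7 CPM in the 3 naive hearts, also without overlap. The difference was 1.21 (SE 0.39, adjusted p = 0.236, edgeR), and 0.59 without MI replicate 3. CDK4 had 27.3, 29.3 and 22.7 CPM in MI and 33.0, 40.7 and 35.9 CPM in naive hearts, a difference of -0.47 (SE 0.20, adjusted p = 0.371, edgeR). CCND2 was the other gene without overlap, with 236 to 247 CPM in MI and 139.5 to 185 CPM in naive hearts. These 4 of 10 stand against 24.3% of all genes. voom called CDK6 (1.41, adjusted p = 0.00450) and MYC (0.75, adjusted p = 0.0495), and DESeq2 called none of the 10.

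On day 14 none of the 10 was called (0% of all genes, 14 genes by DESeq2 and 0 by voom), none had an unadjusted p under 0.05 (5.35% of all genes), and the groups of all 10 overlapped (8.22% of all genes did not). MYC had the smallest p, with 14.1, 30.4 and 21.9 CPM in MI and 17.7, 13.7 and 12.4 CPM in naive hearts, a difference of 0.60 (SE 0.39, adjusted p = 0.999, edgeR), and 0.30 without MI replicate 2. CDK6 was most spread in the MI day 14 hearts, at 49.1, 11.4 and 22.7 CPM, which hold the highest level of the series beside one of the lowest.

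The difference between MI and naive hearts was compared between days with an interaction contrast. From day 7 to day 28, none of the 10 genes was called (2 genes, 0.013% of all), while 5 of 10 had an unadjusted p under 0.05, against 19% of all genes. CDK6 changed most, by -2.53 (SE 0.54, adjusted p = 0.0844, edgeR), followed by CCND1 at -1.5 (SE 0.45, adjusted p = 0.128). The other 3 were CCND3 at 0.91 (SE 0.33), RBL1 at -0.87 (SE 0.33) and CDK4 at 0.75 (SE 0.31), with adjusted p (edgeR) of 0.165, 0.185 and 0.203. Without MI day 28 replicate 1 the change of CCND3 was 0.51, and without the 4 libraries that of CDK4 was 0.33. DESeq2 called CCND1 and CDK6 in this contrast, edgeR on the 4 groups alone called CDK6, and voom called none. Without the 4 libraries, MI day 28 held 1 library, and the members called in that fit are not named. From day 7 to day 14, none was called (1 gene, 0.00651% of all) and none of the 10 had an unadjusted p under 0.05 (7.07% of all genes); CDK6 had the smallest p, with a change of -0.94 (SE 0.50, adjusted p = 0.744, edgeR). It was -1.64 without MI day 14 replicate 1 and -0.57 without MI day 14 replicate 2. DESeq2 and voom called none of the 10 there.

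Within MI hearts, day 28 was also set against day 7; this shares the MI day 28 libraries with the comparison above, so the values stand side by side and do not add to it. RBL1 was the 1 gene of 10 called, against 1.74% of all genes (1.31% higher and 0.43% lower), and fell by 1.05 (SE 0.26, adjusted p = 0.0475, edgeR) from 31.9, 32.9 and 22 CPM on day 7. This call was lost in 10 of 12 alternatives: with any 1 of the 5 libraries left out (adjusted p = 0.0530 to 0.163, edgeR), with DESeq2's size factors in edgeR, with no filter on low counts, with voom, with the term for the 4 libraries and with only the groups compared. Of the other 2 alternatives, DESeq2 kept the call, and the fit without the 4 libraries had only 1 MI day 28 library. CDK6 (-1.46), CCND1 (-0.97), CCND3 (0.72) and MYC (1.19) had an unadjusted p under 0.05 and adjusted p (edgeR) of 0.0673, 0.114, 0.102 and 0.119, so that, with RBL1, 5 of 10 stand against 23% of all genes. Without MI day 28 replicate 1, MYC differed by 0.37, CCND3 by 0.29 and CCND1 by -0.59. Without MI day 28 replicate 2, CCND3 differed by 1.1 and MYC by 1.75, and without MI day 7 replicate 3 MYC differed by 1.81 and was not called. Without the 4 libraries, as without MI day 28 replicate 2, MI day 28 was replicate 1 alone. The fit without the 4 libraries also lacked MI day 7 replicate 3. In it CCND1 differed by -1.66, CCND3 by 1.13 and MYC by 2.37. The groups of 4 of the 10 did not overlap, against 32.8% of all genes.

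Over the naive hearts alone, edgeR called no gene, among the 10 or elsewhere (0% in each of 3 comparisons), while DESeq2 called 12 genes in all between day 1 and day 7, 57 between day 7 and day 28 and 0 between day 1 and day 28, and voom 0, 433 and 0. voom called CDK6 between day 28 and day 7 (1.30, adjusted p = 0.0246), and DESeq2 called none of the 10. CDK6 was low on day 1 (16.5 and 15 CPM) and day 7 (9.91 to 15.7 CPM) and higher on day 3 (28.8 and 26.2 CPM), day 14 (23.5 to 30.0 CPM) and day 28 (25.8 to 27.7 CPM). The naive day 7 and day 28 groups did not overlap, with a difference of 1.07 (SE 0.36, adjusted p = 0.509, edgeR). CDK4 was lower on day 28 than on day 7 by 0.44 (log2 difference -0.44, SE 0.20, adjusted p = 0.684, edgeR). These 2 of 10 had an unadjusted p under 0.05 against 7.18% of all genes, and 3 of 10 did not overlap, against 18.3%. Between day 1 and day 7, CCND1 had the 1 unadjusted p under 0.05 of 10 genes (5.44% of all), at 135 and 199 CPM on day 1 and 94.2, 106 and 98.5 CPM on day 7, a difference of -0.75 (SE 0.33, adjusted p = 0.910, edgeR) that was -0.45 without day 1 replicate 2, and 3 of 10 did not overlap (24.7% of all). Between day 1 and day 28, CCND3 (-0.55, SE 0.24) and CDK4 (-0.50, SE 0.23) had an unadjusted p under 0.05 (5.27% of all), both with an adjusted p (edgeR) of 0.867, and CDK4 differed by -0.31 without day 1 replicate 1, and 2 of 10 did not overlap (25.1% of all). CCND2 had the widest spread among naive hearts, 98.5 to 449 CPM, and both extremes came from day 1 and day 3.

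Ratios of related genes within a library do not depend on library size. CCND2 over CCND1 was 2.18 and 3.74 in the MI day 28 hearts and 1.08 to 1.43 in naive day 28 hearts. RBL1 over RBL2 was 0.115 and 0.230 against 0.319 to 0.926. CDK6 over CDK4 was 0.246 and 0.346 against 0.777 to 1.26 on day 28, and on day 7 it was 0.785 to 1.13 in MI against 0.276 to 0.475 in naive hearts. The order of the groups was therefore opposite on the 2 days for CDK6 over CDK4. Against naive hearts of all days, only RBL1 over RBL2 kept both MI day 28 values outside the naive range. CCND2 over CCND1 was 2.26 in naive day 1 replicate 2, and the naive day 7 range of CDK6 over CDK4 included the MI value of 0.346. Each ratio holds a gene called on day 28 and so partly restates that call. The share of gene pairs that separate this way was not counted. The MI day 7 hearts reached 3.50 for CCND2 over CCND1 and 0.183 for RBL1 over RBL2, both in replicate 3.

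**Figure D3:**
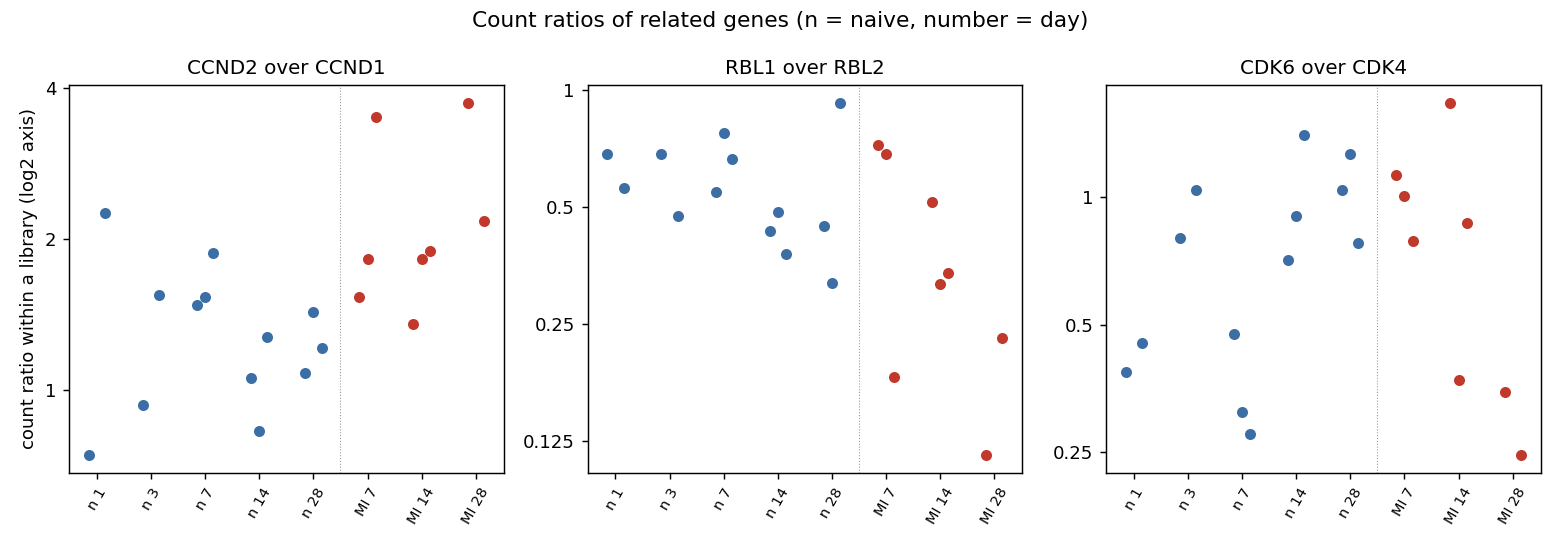
Ratio of counts (log2 y axis) of CCND2 to CCND1, RBL1 to RBL2 and CDK6 to CDK4 in every library, by group, naive in blue and MI in red. CDK6 over CDK4 was above the naive group on day 7 (0.785 to 1.13 against 0.276 to 0.475) and below it on day 28 (0.246 and 0.346 against 0.777 to 1.26).

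Of 27 other tested genes of the G1 and pocket protein pathway (29 listed; CCNE1 and CDKN2A were not tested), 0 were called by edgeR in any of the 9 comparisons. Over these 9, an unadjusted p under 0.05 occurred 25 times in 243 gene tests (10.3%), against 12.4% of all gene tests, and DESeq2 made 1 call and voom 8. The 9 comparisons share libraries, so such counts, here and for the other lists, are not of independent tests. The median log2 fold change of MI against naive hearts on day 28 was -0.11, against 0.00 over all genes. Of 17 tested E2F targets of DNA replication, none was called by edgeR in the 9 comparisons either (16 unadjusted p under 0.05 in 153 gene tests, 10.5%, 1 call by DESeq2 and 4 by voom). Their median was -1.08 on day 7, 0.14 on day 14 and -0.99 on day 28. They summed to 202 and 241 CPM in the MI day 28 hearts and 259.5 to 433 CPM in naive day 28 hearts, without overlap, but both MI sums lay inside the range of 199 to 715 CPM over the 13 naive libraries. On day 7 the sums were 181 to 434 CPM in MI and 600.5 to 715 CPM in naive hearts. Naive sums on the other days reached no more than 552 CPM. MI day 7 replicates 1 and 2, at 384 and 434 CPM, lay inside the range of the 13 naive libraries, and replicate 3, at 181 CPM, lay below it. Of 13 tested textbook MYC targets, none was called by edgeR (11 unadjusted p under 0.05 in 117 gene tests, 9.4%, 0 calls by DESeq2 and 4 by voom), with a median of 0.21 on day 28. In the MYC network, 2 of 12 tested genes were called by edgeR on day 28, both higher, against 4.47% of all genes, and both also called by DESeq2 but not by voom. Over the 9 comparisons this list had 18 unadjusted p under 0.05 in 108 gene tests (16.7%), and its day 28 median was 0.23. MAX, the obligate partner of MYC, had 62.9 and 50.3 CPM in MI and 36.4, 42.5 and 31.8 CPM in naive hearts and rose by 0.62 (SE 0.17, adjusted p = 0.0411, edgeR); it was not called without MI replicate 1 (0.47), without any 1 of the 3 naive libraries, with no filter on low counts, with the term for the 4 libraries or with only the groups compared. MYCL, a MYC paralog, rose by 3.36 (SE 0.71, adjusted p = 0.0204, edgeR), from 0.416, 0.476 and 0.220 CPM in naive hearts to 0.808 and 6.82 CPM; it was not called without MI replicate 2 (1.15), without the 4 libraries (1.34), without any 1 of the 3 naive libraries or with only the groups compared.

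Across libraries, MYC and E2F3 ran in opposite directions. Pearson's r of their log2 CPM was -0.884 over 21 libraries (Spearman's rho -0.833). It was -0.808 without the 2 farthest libraries, MI day 28 replicate 1 and MI day 7 replicate 3, and -0.647 over the 13 naive libraries. MYC and RBL2 had r = 0.700, which was 0.0937 without those 2 libraries, and CCND1 and MYC had -0.685, which was -0.237 without them. The last pair of relations was thus much weaker without these 2 libraries, which come from different groups. Over the 13 naive libraries both had the opposite sign, at -0.276 for MYC and RBL2 and 0.341 for CCND1 and MYC. The points share library and normalization, so r is given as a description. Genes whose levels most resembled each member over the 21 libraries, of 13039 compared, were E2F1 for E2F3 (r = 0.895), RPL36AL for MYC (0.912), EIF4A2 for RBL2 (0.945), DYNC1LI1 for RBL1 (0.920), FOXC2 for CCND3 (0.910), ROCK2 for CDK6 (0.869), ACTR3 for CDK4 (0.871), SLC29A2 for CCND1 (0.839), PBRM1 for RB1 (0.793) and PDLIM3 for CCND2 (0.776).

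**Figure D4:**
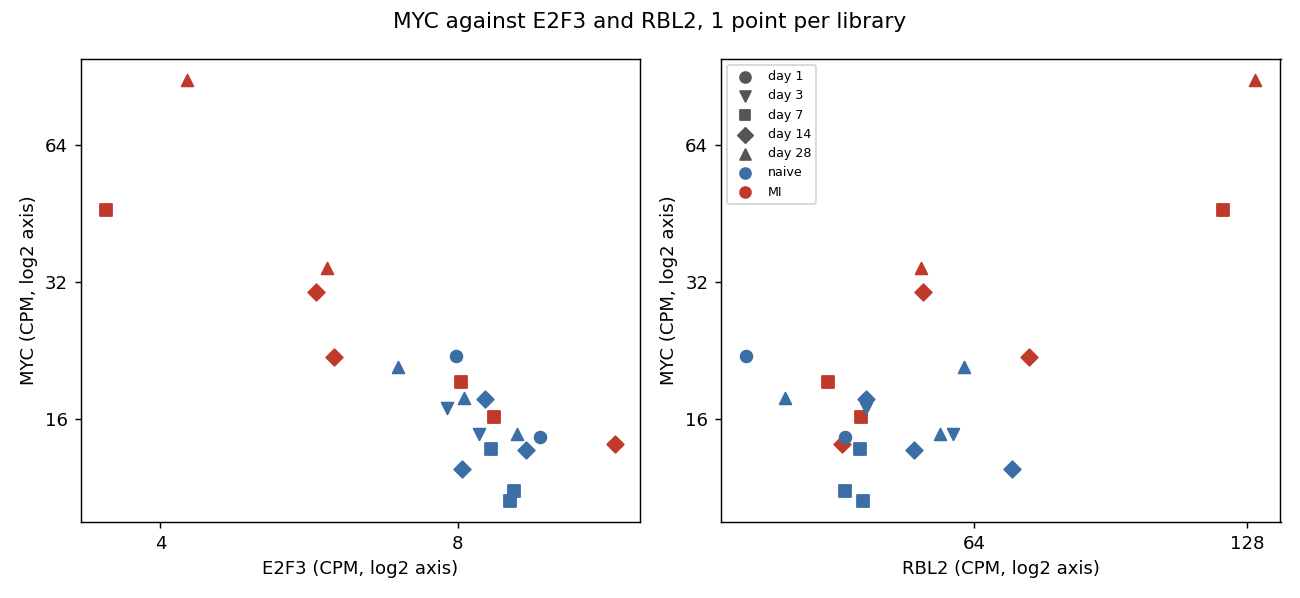
MYC (y axis, log2-scaled CPM) against E2F3 (left) and RBL2 (right), 1 point per library, colour for naive or MI and shape for day. MYC is lower where E2F3 is higher over the 21 libraries (r = -0.884), while its relation to RBL2 rests on MI day 28 replicate 1 and MI day 7 replicate 3.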

How the data were processed

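RNA-seq counts per gene were deposited by the authors as 1 table of whole numbers; the submitters' processing notes name Trim Galore, STAR 2.5.2, HTSeq 0.6.1, DESeq2 and the build Sscrofa11.1, with no annotation release or strand setting. From these counts, genes kept by filterByExpr (15359 of 25880) were scaled by TMM and fitted with edgeR 4.0.16 in R 4.3.3: glmQLFit with robust = TRUE, 1 mean per group over the 21 libraries, two-sided quasi-likelihood tests and Benjamini-Hochberg adjustment over all genes. The common dispersion was 0.139 (13 residual degrees of freedom), and nothing in the labels pairs pigs between groups. Libraries of the same group differed by far more than counting noise (chi-square per degree of freedom 51.7 to 914 over 18 pairs). DESeq2 1.42.0 and limma 3.58.1 (voom) were alternatives. Each member's levels are given; a fold change is printed where its unadjusted p was under 0.05, or else for the smallest p, and other values were chosen after they were seen. Called pathway genes were named up to 3 a list, and the most alike gene was named by Pearson's r of log2 CPM (prior count 2). Members and gene lists were chosen with earlier results of these data known. Promoter sequences were read from the RefSeq assembly.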

Additional observations from a re-analysis of the deposited data

Results flagged for a closer look

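CDK6 stood out because its MI and naive groups separated in opposite directions on day 7 and day 28. Every MI library was above every naive library of its age on day 7 and below it on day 28. The naive level was itself low on day 7, with a mean of 12.8 CPM, and on day 1 (15.7). Naive means were 27.5, 26.02 and 26.7 CPM on days 3, 14 and 28, and the MI day 7 mean was 26.1. Only replicate 1 of the MI day 7 hearts was above all 13 naive libraries. The day 7 separation thus rests in part on the low naive level of that day. The change of the difference was -2.53 on the log2 scale (SE 0.54). It did not pass the adjusted threshold in edgeR's quasi-likelihood test over all genes (adjusted p = 0.0844). Of 18 alternatives, DESeq2 (-2.43, adjusted p = 0.00193) and edgeR on the 4 groups alone (-2.48, adjusted p = 0.0262) called it. The other 16, voom among them, did not. Leaving out 1 library at a time gave -2.74 to -2.32, with adjusted p between 0.0517 and 0.191.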

How the results depend on the processing

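Groups of 2 or 3 pigs limited every comparison. No paired analysis was possible because the labels share no pig number between groups. For the 27 single-gene results, 367 values under an alternative were computed. No fold change changed sign; 295 values kept their side of the threshold, 58 lost a call and 14 gained one. In what follows all genes come first, then the 10 genes. On MI against naive day 28, counts of 1053 and 5 became 2205 with DESeq2, 46 and 0 with voom, 2 and 0 with only the groups compared, and 646 and 3 with the term for the 4 libraries, which was chosen after seeing the data. Leaving out 1 library gave 17 to 1162 and 0 to 3. On day 7, 0 and 0 became 263 with DESeq2 and 2040 and 2 with voom. On day 14, 0 became 14 with DESeq2 and 2 without the 4 libraries, and 0 to 1 with 1 library left out. For the change from day 7 to day 28, 2 and 0 became 695 and 2 with DESeq2, 35 with voom, 367 and 2 without the 4 libraries, 135 and 1 with only the groups compared, and 1 with the term; with 1 library left out it was 1 to 528 and 0. For the change to day 14, 1 became 33 with DESeq2, 5 with voom and 0 with the term, and 0 to 1 with 1 library left out. For MI day 28 against MI day 7, 267 and 1 became 1378 and 3 with DESeq2, 100 and 0 with voom, 1070 and 5 without the 4 libraries, 0 and 0 with only the groups compared, and 166 and 0 with the term; the 1 member call was 0 with DESeq2's size factors in edgeR and with no filter, and leaving out 1 library gave 0 to 917 and 0 to 2. For naive day 28 against day 7, 0 and 0 became 57 with DESeq2, 433 and 1 with voom and 4 with only the groups compared. For naive day 7 against day 1, 0 became 12 with DESeq2, and 0 to 1 with 1 library left out. Leaving out the 4 libraries, or either MI day 28 library, left 1 MI day 28 library. Counts that involve MI day 28 under those settings therefore rest on 1 pig in that group. The causes were not tested.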

Other observations

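MI day 7 replicate 3 and MI day 28 replicate 1, from different groups, were the 2 libraries with the highest MYC (46.0 and 89.4 CPM) and the highest RBL2 (120.4 and 131 CPM), and also those with the lowest E2F3 (3.52 and 4.26 CPM) and the lowest CCND1 (70.6 and 44.4 CPM). They differed in CCND3 (31.7 and 64.1 CPM) and in CDK6 (17.8 and 9.59 CPM). Mitochondrial genes held 26.2% and 34.6% of their counts, the latter the highest share of the 21 libraries. Summed neutrophil markers were 30.5 and 5.19 CPM in these 2 libraries, and summed adipocyte markers 30.7 and 668 CPM, against naive ranges of 0.584 to 3.47 and 109 to 285 CPM.

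In the 13 naive libraries, CDK4 and RBL2 ran in opposite directions (r = -0.886 as a description over libraries that share their normalization), and over all 21 libraries r was -0.609.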
